A study of Mus musculus with 10 samples.

Results

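The tubulin isotypes are the alpha and beta proteins of which microtubules are built. The isotypes described here were Tuba1a, Tuba1b, Tuba1c, Tuba4a, Tuba8, Tubb2a, Tubb2b, Tubb3, Tubb5 and Tubb6, and their probes were taken as the non-control spots of the array whose RefSeq accession belongs to one of those genes. Of the 10 genes, 9 were found, with 15 of the 41174 probes on the array and 9 of the 18539 genes that could be named. No probe carried an accession of Tuba1b, so Tuba1b is not described further. The members were 4 alpha and 5 beta isotypes, of which 5 had 1 probe and 4 had several.

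The RNA came from the left hemibrains of 10 male C57BL/6J mice, which were housed singly and fed their diet for 20 weeks from the age of 3 weeks, so that they were 5 months old at collection. The hemibrain RNA carried Cy-5 and was hybridized on a dual dye array against an RNA labeled with Cy-3. The methods and the labeling protocol name a commercial reference RNA for Cy-3, whereas the sample labels give a pool of hemibrains from mice on the standard lab diet (SD). The diet entries give the n-3 PUFA enriched diet (FD) for all 10 Cy-5 samples, and the sample descriptions call the same samples controls. The methods name samples from 4 FD mice and 3 SD mice, fewer than the 10 arrays here. The diet of each array was therefore not settled, FD and SD were not compared, and the spread over the arrays may hold an effect of diet. The Cy-3 RNA is called the reference RNA below. The 10 arrays lay on 4 slides, 2 of which held 4 arrays each. A hemibrain is a mixture of cell types, so fewer cells of a type and less RNA per cell cannot be told apart.

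Microtubules are hollow tubes that grow and shrink by adding and losing pairs of alpha and beta tubulin. They give axons and dendrites their shape, serve as tracks for transport, and form the spindle of dividing cells. The genes encode proteins of closely similar sequence that differ mainly in their C-terminal tails, and neurons and dividing cells use different sets of them. Tubb3 is the classic neuronal beta tubulin, and Tuba1a and Tubb2b are known for their role in young neurons.

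One array stood apart. On that of C10-434 the share of probes flagged well above background in Cy-5 was 49.8%, where the remaining arrays had 68.2% to 76.9%, and its median background-subtracted Cy-5 signal was 28.5 against 60.0 to 171. In Cy-3 its share was also the lowest, 61.9% against 70.3% to 79.1%. Its median background-subtracted Cy-3 signal of 127 lay within the 103 to 136 of the remaining arrays. For the isotypes this array gave the lowest Cy-3 signal for 15 of 15 probes and the lowest Cy-5 signal for 14 of 15. The markers went with hemibrain as the source of the Cy-5 RNA and against the sample labels that give a hemibrain pool for Cy-3, since 9 of 10 neuron markers were higher in the Cy-5 RNA, with a median log2 ratio of 5.41, and 7 of 7 proliferation markers were lower, with a median of -5.45. Markers of other brain cells were also higher, for 6 of 7 genes of astrocytes, 7 of 7 of oligodendrocytes, 5 of 7 of microglia and 5 of 6 of endothelium, as were both measured blood genes. The median of the neuron markers ran from 5.20 to 6.60 over the arrays, with its highest value on C10-434. On the same array the medians of the microglia (3.28) and blood (4.84) markers were also the highest of the 10 arrays, and those of the oligodendrocyte (4.94) and endothelial (4.18) markers the lowest.

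The promoters shown here belong to the isotypes whose 250 bases before the annotated start hold a CCAAT box, a motif bound by the factor NF-Y. They span the whole run of ratios described below, from Tubb3 and Tuba1a at the upper end through Tubb5 to Tuba1c at the lower end. Sequences are from RefSeq, build GRCm38.p6, written 5' to 3' on the strand of the gene. Capitals mark CCAAT or GGGCGG (the GC box) on either strand, the reverse forms being ATTGG and CCGCCC, and none of the marked motifs overlap.
Tubb3, chr8:123411303-123411552, plus strand: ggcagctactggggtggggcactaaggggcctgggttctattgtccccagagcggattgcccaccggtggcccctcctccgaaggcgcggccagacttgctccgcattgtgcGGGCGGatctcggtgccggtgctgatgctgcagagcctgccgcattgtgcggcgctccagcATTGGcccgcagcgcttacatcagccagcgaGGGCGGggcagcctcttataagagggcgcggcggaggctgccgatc
Tuba1a, chr15:98953502-98953751, minus strand: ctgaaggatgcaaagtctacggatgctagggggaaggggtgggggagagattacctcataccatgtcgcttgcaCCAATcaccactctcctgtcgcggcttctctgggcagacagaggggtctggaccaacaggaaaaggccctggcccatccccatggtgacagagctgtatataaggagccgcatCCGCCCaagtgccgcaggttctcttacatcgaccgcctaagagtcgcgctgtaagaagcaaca
Tubb5, chr17:35838302-35838551, minus strand: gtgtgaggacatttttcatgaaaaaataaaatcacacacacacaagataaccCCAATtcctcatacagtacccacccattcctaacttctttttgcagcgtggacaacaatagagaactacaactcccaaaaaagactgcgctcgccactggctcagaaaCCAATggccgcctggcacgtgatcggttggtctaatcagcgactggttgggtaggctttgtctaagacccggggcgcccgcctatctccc
Tuba1c, chr15:99029641-99029890, plus strand: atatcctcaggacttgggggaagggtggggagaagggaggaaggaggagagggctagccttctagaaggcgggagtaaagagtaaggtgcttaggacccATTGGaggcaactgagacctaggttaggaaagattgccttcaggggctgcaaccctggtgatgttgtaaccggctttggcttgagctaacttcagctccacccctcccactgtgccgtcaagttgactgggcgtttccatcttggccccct

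The promoter table matched 8 of the 10 isotypes, Tuba1b included. CCAAT was found in 4 of them, against 33.8% of all 32851 promoters in the same window. The Tubb5 window held it at 2 positions and the other windows at 1. GGGCGG was found in 5, those of Tuba4a, Tubb3, Tubb2a, Tuba1b and Tuba1a, against 32.7% of all promoters. TATAAA was found in that of Tubb2a alone among the 8, against 12.4% of all promoters. The count of CpG dinucleotides was 21 for Tubb3, 11 for Tuba1a, 10 for Tubb5 and 4 for Tuba1c, against a median of 6 over all promoters. These are counts of letters and not of bound sites.

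The first comparison asked which isotypes were higher or lower in hemibrain RNA than in the reference RNA. All 15 probes were well above background in both dyes on all 10 arrays, and none was saturated. Each gene took the values of its brightest probe and was called higher or lower when limma gave a Benjamini-Hochberg adjusted p under 0.05 over all 41174 probes and a mean log2 ratio of at least 1 or at most -1. By this rule 4 isotypes, Tubb3, Tubb2b, Tuba1a and Tubb2a, were higher, against a background of 25.5% of all 18539 genes. The isotypes called lower were 2, Tubb6 and Tuba1c, against a background of 19.8%, and Tuba4a, Tuba8 and Tubb5 were called neither. By the adjusted p alone, with no limit on size, 6 isotypes were higher, against a background of 45.2%, and 2 were lower, against 35.8%. Over probes, 8 of 15 were higher, against a background of 22.8%, and 2 of 15 were lower, against 20.1%. The reference was 1 RNA, so its own spread is not part of these tests. Hemibrain RNA carried Cy-5 on all 10 arrays, with no swap of the dyes. A leaning of a probe towards either dye is therefore not separated from a difference between the RNAs, small ratios included.

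**Figure D1:**
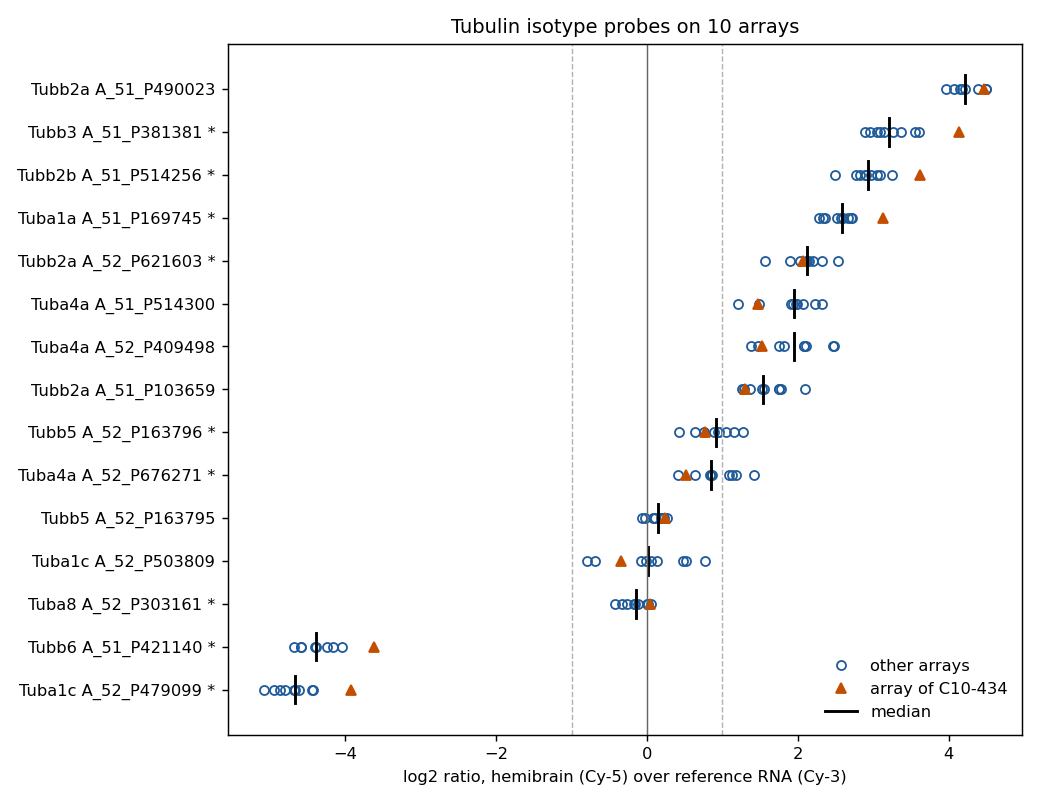
Log2 ratio of hemibrain (Cy-5) over reference RNA (Cy-3) for each of the 15 isotype probes (rows, ordered by median). Circles are arrays, triangles the array of C10-434, black bars the median and dashed lines log2 ratios of 1 and -1, and an asterisk marks the brightest probe of a gene. The probes of Tubb6 and a probe of Tuba1c sit below -3.6 on every array with a value, while the other Tuba1c probe straddles 0.

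Tubb3, the beta isotype that marks neurons, had a log2 ratio of 2.90 on the lowest array, 3.21 at the median and 4.14 on the highest. All 10 arrays were well above 0, and the highest value was that of C10-434, without which the values ended at 3.60. The mean was 3.31 (SE 0.115, n = 10 arrays, limma adjusted p 3.42e-11), a 9.89-fold higher signal in the hemibrain RNA. Its probe was printed 10 times on each array, and the SD between those spots within an array was 0.033 to 0.175 on the log2 scale. In signal, hemibrain RNA gave 24867 to 60396 and reference RNA 1558 to 7345, so the dyes did not overlap.

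Tubb2b, a beta isotype of migrating and growing neurons, ran from 2.49 through a median of 2.94 to 3.62. The array of C10-434 was again highest, and the other arrays ended at 3.24. The mean was 2.99 (SE 0.096, n = 10 arrays, limma adjusted p 1.67e-11), or 7.92-fold. Its hemibrain signal was 6379 to 12272 and its reference signal 628 to 1670, again without overlap.

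Tuba1a, the alpha isotype most often linked to the developing brain, ran from 2.28 through a median of 2.58 to 3.13. The highest value was once more on C10-434, and the other 9 arrays lay between 2.28 and 2.71. The mean was 2.59 (SE 0.083, n = 10 arrays, limma adjusted p 1.68e-11), or 6.02-fold. Its promoter, shown above, shares a CCAAT box and a GC box with that of Tubb3.

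Tubb2a, a beta isotype abundant in adult brain, was measured by 3 probes, and all 3 were called higher with different sizes. The brightest, A_52_P621603, ran from 1.57 through 2.12 to 2.53, with a mean of 2.10 (SE 0.085, limma adjusted p 1.48e-10). A_51_P490023 ran from 3.97 through 4.22 to 4.501 on the 9 arrays where its spot was not an outlier, and A_51_P103659 from 1.27 through 1.53 to 2.10. On every array with both values A_51_P490023 exceeded the brightest probe, and the brightest probe minus A_51_P490023 was -2.61 to -1.43. The direction for Tubb2a was thus shared by its probes, while the size spanned 2.96-fold to 19.3-fold.

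**Figure D2:**
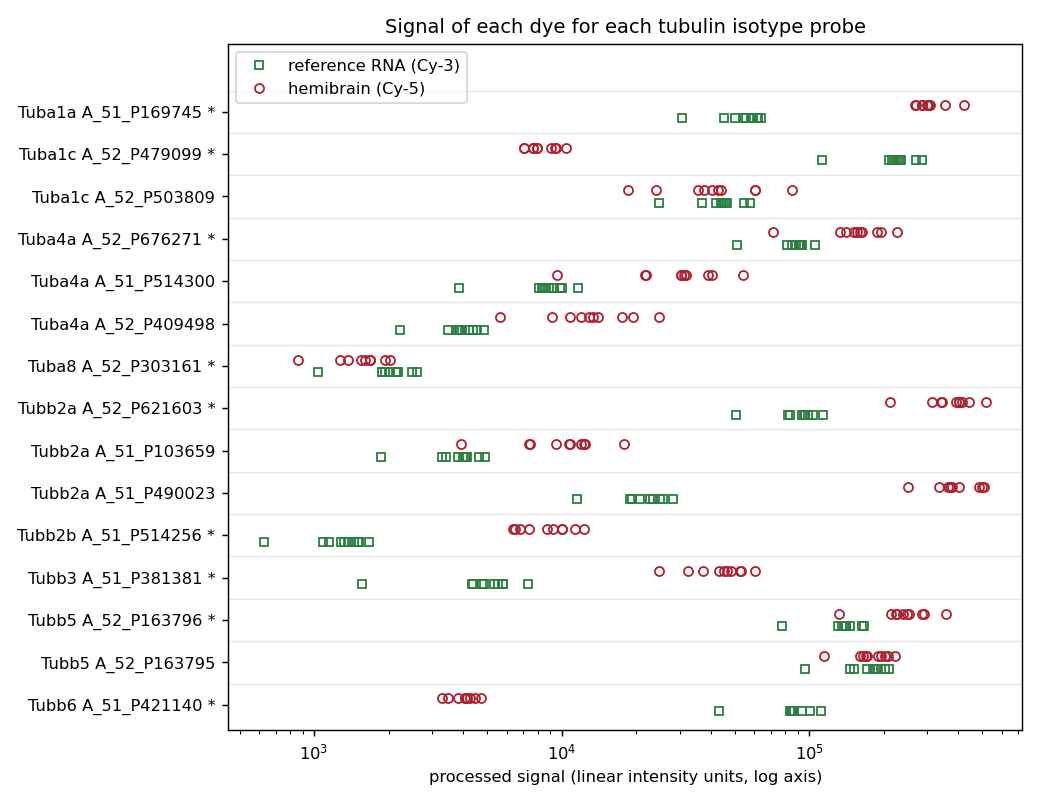
Processed signal of each dye (linear intensity units on a log axis) for each isotype probe, with a circle for hemibrain RNA (Cy-5) and a square for reference RNA (Cy-3) on each of the 10 arrays. Only the dyes of the same row can be compared, because probes differ in how strongly they bind. The dyes do not overlap for Tubb3, Tubb2b, Tuba1a and Tubb6, and they overlap for Tuba8, for both probes of Tubb5, for A_52_P503809 of Tuba1c, for A_52_P676271 and A_51_P514300 of Tuba4a and for A_51_P103659 of Tubb2a.

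Tuba4a, an alpha isotype whose gene does not encode the usual last tyrosine, was called by some of its probes. The brightest, A_52_P676271, ran from 0.41 through 0.85 to 1.42, and its mean of 0.89 (SE 0.100, limma adjusted p 3.40e-06) missed the threshold of 1 on the log2 scale. A_51_P514300 ran from 1.21 through 1.96 to 2.32 and A_52_P409498 from 1.37 through 1.95 to 2.48, and both were called higher. Every array was above 0 for all 3 probes. On each of the 10 arrays the brightest probe gave the smaller ratio, with differences of -1.11 to -0.79 from A_51_P514300 and of -1.33 to -0.72 from A_52_P409498.

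Tubb5, a beta isotype used by most cell types, had 2 probes. The brightest, A_52_P163796, ran from 0.42 through 0.92 to 1.27, with a mean of 0.89 (SE 0.084, limma adjusted p 7.10e-07) that was also short of 1. A_52_P163795 ran from -0.06 through 0.15 to 0.27, with a mean of 0.13 and an adjusted p of 0.0497 by limma. A_52_P163796 was above A_52_P163795 on 10 of 10 arrays, by 0.44 to 1.07.

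Tuba8, an alpha isotype known from muscle and testis, ran from -0.42 through -0.14 to 0.05. Its mean of -0.14 (SE 0.066, n = 10 arrays, limma adjusted p 0.0750) did not pass the test. Without loess the mean was -0.38 from the deposited log ratio (limma adjusted p 9.04e-05), after median centring and from the deposited table, still short of the size a call needed. Normexp (-0.16, adjusted p 0.0394) and a floor on the background (-0.17, adjusted p 0.0291) also passed the limma test by p alone. In signal, hemibrain RNA gave 862 to 2032 and reference RNA 1033 to 2609, and the dyes overlapped.

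Tubb6, a beta isotype that is broadly expressed outside the nervous system, was lower in the hemibrain RNA. It ran from -4.68 through -4.39 to -3.62 over 9 arrays, with the spot on C10-437 set aside as an outlier. The highest value was on C10-434, and the other arrays ended at -4.04. The mean was -4.30 (SE 0.109, n = 9 arrays, limma adjusted p 9.13e-12), which put the reference RNA 19.7-fold above the hemibrain RNA. Hemibrain RNA gave signals of 3285 to 4726 and reference RNA 43295 to 112106.

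Tuba1c, a widely expressed alpha isotype, was measured by 2 probes that disagreed. The brighter, A_52_P479099, ran from -5.08 through -4.67 to -3.93, with a mean of -4.65 (SE 0.102, limma adjusted p 6.76e-13) and a reference signal 25.02-fold above that of the hemibrain. A_52_P503809 ran from -0.79 through 0.02 to 0.77, with a mean of 0.003 (SE 0.149) and an adjusted p of 0.986 by limma. The difference between the probes was -5.44 to -3.58 over the 10 arrays, with a median of -4.67, and no array reversed it. The brightness of the probes was nearly the same, at 15.38 and 15.37 as the mean log2 signal of both dyes, so the call of Tuba1c as lower rests on a small margin in the choice of probe. The mean of both probes was -2.32. Tubulin genes are closely similar in sequence, and whether any of these probes also bound a related transcript was not tested, as no probe sequence was used here.

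The second comparison placed the isotypes in order of their log2 ratio and asked whether neighbours in that order differed beyond their spread over the arrays. The order is one of ratios to the reference RNA and not of amounts of RNA, and it uses the brightest probe of each gene. From highest to lowest it was Tubb3, Tubb2b, Tuba1a, Tubb2a, Tubb5, Tuba4a, Tuba8, Tubb6 and Tuba1c. The place of Tubb2a depends on the choice of probe. Its probe A_51_P490023 had a mean of 4.27, above the 3.31 of Tubb3, and its probe A_51_P103659 a mean of 1.57. An exact sign-flip permutation test, two-sided, was applied to the within-array differences of the 8 neighbouring pairs, with Benjamini-Hochberg adjustment over the pairs, and 7 differed. Each pair compares different probes, and differences between probes in how far they compress ratios were not removed. The probes of Tubb5 alone differed by a median of 0.74, more than several steps below, while the dimmer probes of Tuba4a differed by a median of -0.08. The p-values therefore do not separate isotypes from probes. The smallest p this test can give is 0.00195 with 10 arrays and 0.00391 with 9.

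Tubb3 exceeded Tubb2b by a mean of 0.32 (SD 0.33, n = 10, higher on 8 of 10 arrays, exact permutation adjusted p 0.0268). Without C10-434 the difference was 0.30 and its adjusted p 0.0536 by the same exact test, so the size of this step changed little while its call was lost. Tubb2b exceeded Tuba1a by 0.40 (SD 0.19, n = 10, higher on 10 of 10 arrays, exact permutation adjusted p 0.00521), a step that was 0.15 with normexp background correction (exact permutation adjusted p 0.754). Tuba1a exceeded Tubb2a by 0.49 (SD 0.43, n = 10, higher on 9 of 10 arrays, exact permutation adjusted p 0.0104), and Tubb2a exceeded Tubb5 by 1.21 on 10 of 10 arrays.

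Tubb5 and Tuba4a did not differ beyond their spread. Their mean difference was -0.007 (SD 0.12, n = 10, exact permutation adjusted p 0.875), with Tubb5 higher on 6 of 10 arrays and single differences from -0.15 to 0.25. Tuba4a exceeded Tuba8 by 1.03 on 10 of 10 arrays. Tuba8 exceeded Tubb6 by 4.17 on 9 of 9 arrays (exact permutation adjusted p 0.00781), the largest step of the order. Tubb6 exceeded Tuba1c by 0.31 on 8 of 9 arrays (exact permutation adjusted p 0.0104), but this step turned to -1.997 when the probes of Tuba1c were averaged, and the step from Tuba1a to Tubb2a shrank to 0.02 (exact permutation adjusted p 0.852). With the same averaging Tuba4a lay above Tubb5 by 1.05 (exact permutation adjusted p 0.00391).

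The isotypes were then compared over the arrays, which are named by animal because their diet is not settled. The highest minus the lowest array was 0.33 to 1.56 on the log2 scale over the 15 probes, with a median of 1.01, against a median of 0.84 over the 17612 probes well above background in both dyes on all arrays. The narrowest range was that of Tubb5 probe A_52_P163795, and the widest that of Tuba1c probe A_52_P503809.

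**Figure D3:**
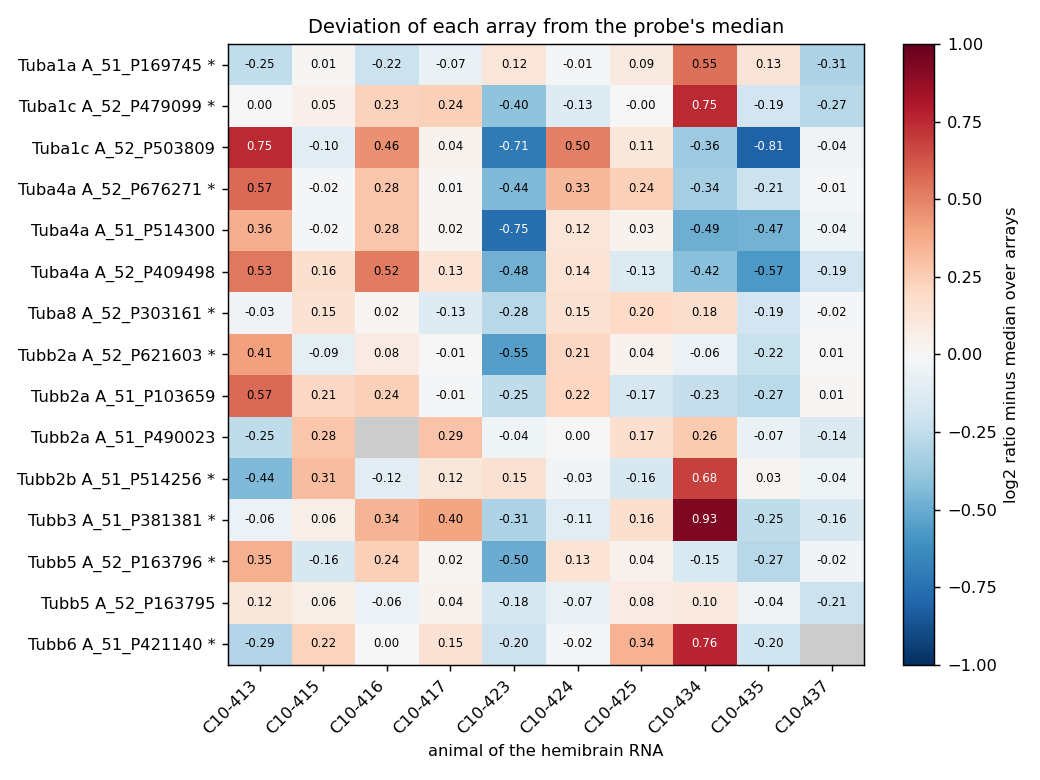
Log2 ratio of each array minus the median of the probe over the arrays, for the 15 isotype probes (rows) and the 10 animals (columns), with red above and blue below the median and grey for spots set aside. C10-413 is above the median for all probes of Tuba4a and Tubb5, C10-423 is below it for most probes, and C10-434 is 0.55 to 0.93 above it for Tuba1a, Tubb2b, Tubb3, Tubb6 and the brighter probe of Tuba1c.

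C10-413 gave the highest value for 8 of 15 probes, against 12.7% of the 17612 bright probes. These were the 3 probes of Tuba4a, both probes of Tubb5, A_52_P621603 and A_51_P103659 of Tubb2a, and A_52_P503809 of Tuba1c. The same array gave the lowest value for Tubb2b, for Tubb6 and for A_51_P490023, the remaining Tubb2a probe, so probes of the same gene stood at opposite ends there.

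C10-434 gave the highest value for 5 probes, against 21.0% of the bright probes. Those were Tubb3, Tubb2b, Tuba1a, Tubb6 and A_52_P479099 of Tuba1c. By brightest probe they include the top of the order and both isotypes called lower. The other Tuba1c probe, A_52_P503809, deviated from its median by -0.36 on this array. On this array the deviations of the 3 Tuba4a probes from their medians were -0.49 to -0.34. The lower Cy-5 signal of that array, its lower shares of probes well above background in both dyes and its marker medians are given above. Some of those medians were the highest and some the lowest of the arrays. The part of all these in the isotype values was not tested.

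C10-423 gave the lowest value for 7 probes, against 19.0% of the bright probes, and it was the lowest for Tubb3, Tuba8 and the brighter probes of Tuba1c, Tuba4a, Tubb2a and Tubb5 as well as A_51_P514300 of Tuba4a. C10-435 was lowest for 3 probes and C10-437 for 2. Probes of 1 array share the same labeled RNA, so these counts are not independent of each other.

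Slides were compared as a technical batch, over the 8 arrays of the 2 slides with 4 arrays each. Over all probes limma called 29 of 41042 at an adjusted p under 0.05 (0.0707%), and none was an isotype probe. The count over all probes was 0 to 8 when any of the 8 arrays was left out. At an unadjusted p under 0.05 the background was 9.83%, and 0 of 15 isotype probes passed. The lowest adjusted p of an isotype probe was 0.806, and the mean differences ran from -0.33 for A_52_P409498 of Tuba4a to 0.22 for Tuba1a. For Tubb3 the difference was 0.06 (SE 0.28) and for Tubb2b 0.02 (SE 0.21), both within their errors. The slides held different animals, so slide and animal cannot be told apart.

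Genes that act on microtubules were described from lists of the same pathway, by counts and medians beside those of all genes. Each gene took the values of its brightest probe, so a statement on a single gene rests on that probe. The median of all 18539 genes was 0.12, with 25.5% higher and 19.8% lower, and the isotypes had a median of 0.92, with 4 higher, 2 lower and 3 neither. The 5th and 95th percentiles of all genes were -2.80 and 4.36, and of the 9 isotypes Tubb6 and Tuba1c lay outside them. Tuba1c did so by its brighter probe alone, as the median of A_52_P503809 was 0.02.

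**Figure D4:**
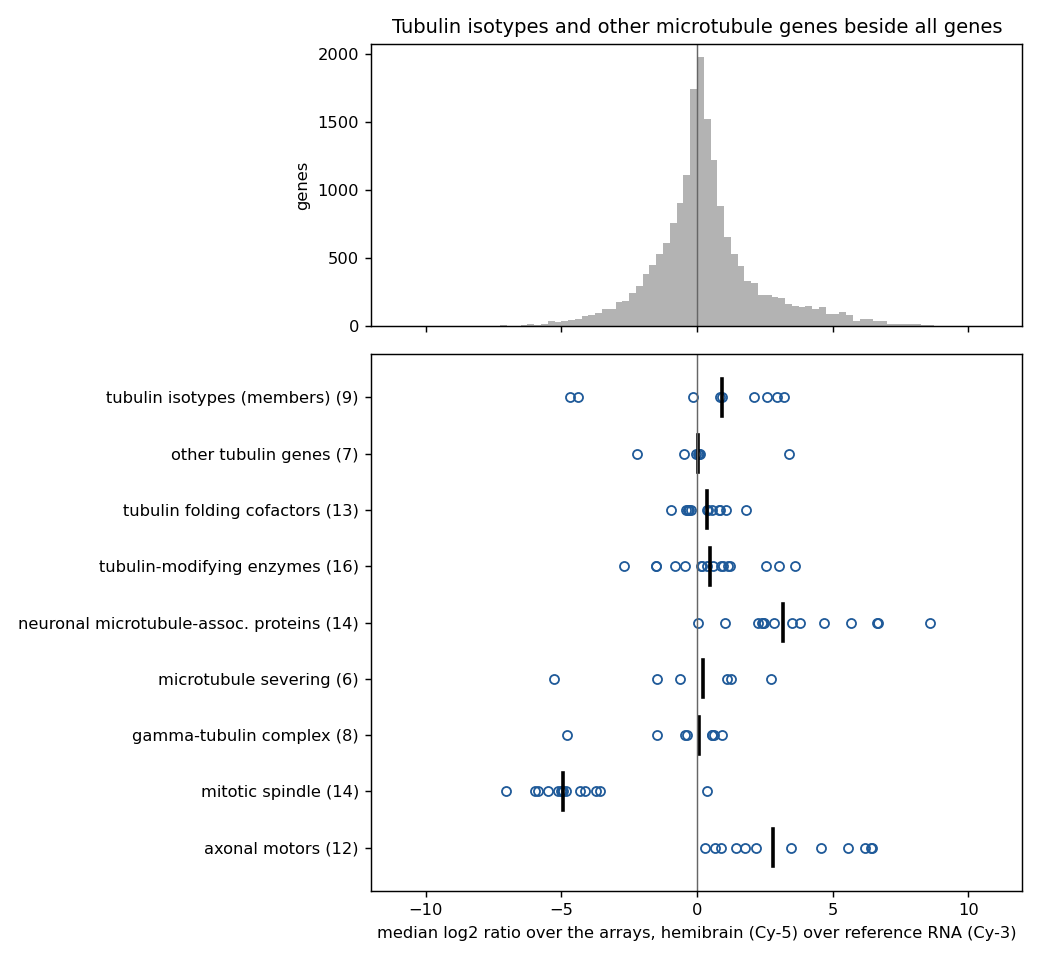
Upper panel, number of genes in each interval of the median log2 ratio over the arrays, for all 18539 genes. Lower panel, the median log2 ratio of each gene (circles) of the isotypes and of 8 lists of microtubule genes, with the number measured in brackets and a bar at the median of the list. Mitotic spindle genes lie almost wholly below 0, neuronal microtubule-associated proteins and axonal motors above it, and the isotypes on both sides.

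Of the other tubulin genes 7 of 10 were measured. Tubg2, a gamma tubulin found in brain, was higher, from 2.93 through 3.39 to 3.66, and Tube1, the epsilon tubulin of centrioles, was lower, from -2.60 through -2.19 to -1.84. Tubg1, the gamma tubulin that nucleates microtubules in dividing cells, had a median of -0.47 and was called neither. Tuba3a (-0.02), Tubb4a (0.12), Tubb4b (0.03) and Tubd1 (0.08) had medians near 0 and were called neither, although a second probe of Tuba3a gave a median of -1.41.

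Genes of tubulin folding, the prefoldins, the tubulin cofactors and Arl2, mostly passed in neither direction, with 2 higher and 11 neither of 13 and a median of 0.38. Pfdn2, a prefoldin subunit, was the highest at a median of 1.796. Pfdn4, another subunit, had the lowest median, -0.95, and was called neither. The tubulin-modifying enzymes add or remove tyrosine, glutamate or acetyl groups. They had 5 higher, 3 lower and 8 neither of 16 measured, with a median of 0.48, shares near those of all genes. Ttll11, a polyglutamylase, stood highest at 3.62 and Ttll12 lowest at -2.70.

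Proteins that bind microtubules in neurons were higher for 12 of 14 measured genes, with none lower and a median of 3.18. Map2, which binds dendritic microtubules, was the highest at a median of 8.58, with its reference signal well above background on 9 of 10 arrays. Map1b, prominent in growing axons, had the lowest median, 0.05, and was called neither. Motors of axonal transport were higher for 9 of 12, with none lower and a median of 2.82, and the median over these genes on single arrays ran from 1.22 on C10-434 to 3.08. Kif5c, a kinesin heavy chain of neurons, stood at 6.45, and Kif3a, a kinesin-2 motor, at 0.31 was called neither.

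Genes of the mitotic spindle were lower for 13 of 14 measured, with a median of -4.94. Of the 14, 8 had a hemibrain signal well above background on all 10 arrays, and Aspm and Ttk had it on 0. Nusap1, a spindle protein, was the lowest at -7.03, with its hemibrain signal well above background on 5 of 10 arrays. Bub1, a checkpoint kinase, had a median of 0.37 and was called neither. The gamma-tubulin complex, which seeds new microtubules, had 2 lower, a share near that of all genes, and 6 neither of 8. Its median was 0.08, from Nedd1 at -4.81 to Mzt1 at 0.93. The hemibrain signal of Nedd1 was well above background on 6 of 10 arrays. Severing enzymes were split, with 3 higher, 2 lower and 1 neither of 6, from Fignl1 at -5.27 to Katnal1 at 2.74. The hemibrain signal of Fignl1 was well above background on 9 of 10 arrays.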

How the data were processed

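Hemibrain RNA in Cy-5 and another RNA in Cy-3 were hybridized on 10 dual dye arrays. The authors deposited the Feature Extraction output (version 10.10.1.1 in the file headers) with signals as linear intensity, and the log10 ratio of Cy-5 over Cy-3 per spot. The deposited table held log2 ratios, with a correlation to the log ratios of 0.997 to 1.000 and 80.1% to 93.5% of probes within 0.001.

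Log2 ratios were computed from the processed signals with loess per array (span 0.3), outlier spots were set aside and spots of a probe averaged. Probes were named by accession through RefSeq genes of GRCm38.p6 (27198 of 41174, 66.1%), for names alone, since the array design used mm9. Probes with a well-above-background flag on 0.5 or more of their spots counted as such. Tests used limma 3.58.1 in R 4.3.3, with Python 3.11.15, scipy 1.17.1 and pandas 2.3.3, and were tested on simulated data.

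The 10 samples form 1 group. Correlations between arrays were 0.866 to 0.967, and p-values measure the spread between these animals only. The named genes are all members with every probe, every other tubulin gene, and the highest and lowest gene of each microtubule list among those well above background in at least 1 dye on all arrays. Members and lists were chosen with earlier results of these data known. Alternatives were the deposited log ratio, median centring, normexp (offset 50, on median signals), the deposited table, the mean of all probes of a gene, only probes well above background, the sign alone, slide as a random block, and leaving out arrays. A background subtraction with a floor of 0.5 was added after the data were examined.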

Additional observations from a re-analysis of the deposited data

Results flagged for a closer look

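Tuba1a on the array of C10-434 stood apart from the other 9 arrays, with a log2 ratio of 3.13 against 2.28 to 2.71. The gap to the next array was 0.490 of the whole range, above the limit of 0.466 for 10 arrays. Of 15 isotype probes it was the only one past the limit for its number of arrays, and chance sets an array apart in about 1 in 20 groups. On this array the Tuba1a signals were 268278 in Cy-5 and 30687 in Cy-3, both the lowest of the 10 arrays.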

How the results depend on the processing

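The count of isotypes lower was 2 under every alternative run. No alternative took A_52_P503809 of Tuba1c alone, which had a mean of 0.003 and a limma adjusted p of 0.986. The count therefore does not test the choice of probe for Tuba1c. The count higher was 4, except 5 with the mean of all probes of a gene, where Tuba4a passed at 1.56, and 6 by sign alone, where Tuba4a (0.89) and Tubb5 (0.89) passed. Leaving out C10-434 changed none of these calls, and slide as a random block (correlation 0.0415) changed none. For Tuba1c the mean of both probes gave -2.32. Of the single values and steps in the order, 138 kept their direction and call, 4 became called, 3 lost the call and 1 turned. Many of these could hardly change. The sign alone and the limit to probes well above background left the log2 ratios of the isotypes as they were. So did the mean of all probes for the 5 isotypes with 1 probe. The deposited table gave nearly the values of the deposited log ratio. The 138 therefore do not count independent checks. The step of Tubb6 above Tuba1c turned to -1.997 with the mean of all probes. Normexp took the step of Tubb2b above Tuba1a to 0.15 (exact permutation adjusted p 0.754). The cause was not tested. In the slide comparison 29 probes were called, against 0 with normexp, 94 with only probes well above background in Cy-5 and 1 with the floor, and 0 to 8 when each array in turn was left out. No isotype probe was called under any of these. All isotype probes were well above background in both dyes.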
